A study of Mus musculus with 2 samples.

Results

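The let-7a, let-7c and let-7f microRNAs (miRNAs) are each encoded by a pair of genes in the mouse genome, Mirlet7a-2 and Mirlet7a-1, Mirlet7c-2 and Mirlet7c-1, and Mirlet7f-2 and Mirlet7f-1. These 6 genes were chosen by their GENCODE M21 names, not by their counts, though with earlier results of these data known. They are 6 of the 2202 miRNA genes in the deposited tables. They were measured by microRNA sequencing of the gastrocnemius (a muscle of the calf) from female mice aged 10 days, with no treatment named in the labels. The strain, B6CASTF1/J, is an F1 hybrid between C57BL/6 and CAST. The labels describe 2 animals, numbered as biological replicates 2 and 1, which carry the same donor entry, and RNA under 30 bases was selected from total RNA of the tissue. All samples form 1 group, so there was no comparison between conditions. The copies were compared with each other, with their neighbours and between the 2 libraries.

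A let-7 gene is transcribed into a longer RNA, from which the nucleases Drosha and Dicer cut a hairpin and then a short duplex. The 5p arm of the duplex is usually kept as the mature let-7, which finds its target mRNAs mainly through its seed, bases 2 to 8, and lowers their output. The 3p arm is usually discarded. The let-7 family is known for rising as tissues differentiate, for repressing growth genes such as Hmga2 and Ras genes, and for being held back by the RNA-binding proteins Lin28a and Lin28b, which bind the let-7 hairpin loop. The tables hold miRNA genes only, so none of these mRNAs was measured.

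The sequences of the arms are shown first because they decide which copies a short read can tell apart. They are from RefSeq (build GRCm38.p6), written 5′ to 3′ with the seed in capitals, and the GENCODE precursors were identical to the RefSeq hairpins for 6 of 6 genes. The 5p arms were the following, each encoded by both copies.
let-7a-5p: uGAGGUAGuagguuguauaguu
let-7c-5p: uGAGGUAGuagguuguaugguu
let-7f-5p: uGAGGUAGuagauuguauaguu

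These 3 miRNAs share their seed. Counted from the 5′ end, let-7a differs from let-7c by A19G and from let-7f by G12A. The let-7a-5p letters were located in the Mirlet7a-2 hairpin by search. The 3p arms, in contrast, are named for single genes.
let-7a-2-3p: cUGUACAGccuccuagcuuuc
let-7a-1-3p: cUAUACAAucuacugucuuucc
let-7c-2-3p: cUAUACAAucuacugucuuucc
let-7c-1-3p: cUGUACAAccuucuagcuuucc
let-7f-2-3p: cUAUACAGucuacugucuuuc
let-7f-1-3p: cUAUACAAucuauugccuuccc

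Within each pair the 3p arms differed. Over the bases compared, 15 of 21 were identical between the let-7a copies, 17 of 22 between the let-7c copies and 17 of 21 between the let-7f copies, and the 3p seeds differed in each pair. Across pairs, let-7a-1-3p and let-7c-2-3p are the same 22 bases. Mirlet7a-1 and Mirlet7c-2 therefore have no listed arm of their own, since the 5p arm recurs in the partner copy and the 3p arm in the other gene. The 3p arms of Mirlet7a-2, Mirlet7c-1, Mirlet7f-2 and Mirlet7f-1 occurred in 0 other annotated precursors.

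The hairpins below show how much of each gene a 22-base read could identify. Capitals mark every base that lies in a 22-base window also found in another annotated precursor, on either strand. Gm24111, a miRNA gene annotated opposite Mirlet7f-1 at the same place, was not counted as another precursor for Mirlet7f-1.
Mirlet7a-2: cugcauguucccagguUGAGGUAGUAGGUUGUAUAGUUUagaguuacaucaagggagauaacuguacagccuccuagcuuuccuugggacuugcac
Mirlet7a-1: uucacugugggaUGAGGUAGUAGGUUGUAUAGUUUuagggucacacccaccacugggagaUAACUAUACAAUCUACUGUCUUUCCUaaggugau
Mirlet7c-2: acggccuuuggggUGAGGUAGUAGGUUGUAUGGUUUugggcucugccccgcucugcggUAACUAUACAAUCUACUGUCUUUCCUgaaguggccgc
Mirlet7c-1: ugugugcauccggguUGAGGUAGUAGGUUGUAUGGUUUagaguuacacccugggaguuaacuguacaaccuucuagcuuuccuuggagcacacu
Mirlet7f-2: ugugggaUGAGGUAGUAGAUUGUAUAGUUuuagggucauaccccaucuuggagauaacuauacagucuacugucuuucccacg
Mirlet7f-1: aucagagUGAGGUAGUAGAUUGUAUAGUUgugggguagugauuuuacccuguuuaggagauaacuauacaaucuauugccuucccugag

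The shared stretch was confined to the 5p arm and at most 1 base after it in 4 of these hairpins, namely 23 bases in Mirlet7a-2 and Mirlet7c-1 and 22 bases in Mirlet7f-2 and Mirlet7f-1. In Mirlet7c-2 and Mirlet7a-1 it also took in the 3p arm, for 49 bases in each, or 51.6% and 52.1% of the hairpin. The longest stretch common to 2 of the hairpins was not within a pair. It was the 26 bases of the 3p side that Mirlet7c-2 shares with Mirlet7a-1, against 23 bases within the let-7a and let-7c pairs and 22 within the let-7f pair.

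Small shifts at the ends of a read change whether it can be placed. A read that starts at the first base of the 5p arm occurred in a single precursor from a length of 24 bases for the let-7a and let-7c copies and of 23 bases for the let-7f copies. A read that starts 1 base earlier was already unique at 20 bases for Mirlet7a-2 and Mirlet7c-1, and at 18 bases, the shortest length tried, for the other four. On the 3p side, reads of Mirlet7c-2 and Mirlet7a-1 that start at the first base of the arm also needed 24 bases. For reads of 22 bases, the usual size of a miRNA, 90.5% of the windows of Mirlet7c-2 and 90.4% of those of Mirlet7a-1 were unique, against 97.3% to 98.5% in the rest of the copies. These percentages count every window of a hairpin once and not by where reads fall. A 22-base read from the first base of the 5p arm was shared in all 6 copies. This search used exact matches among annotated precursors only, and other places in the genome were not searched.

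**Figure D1:**
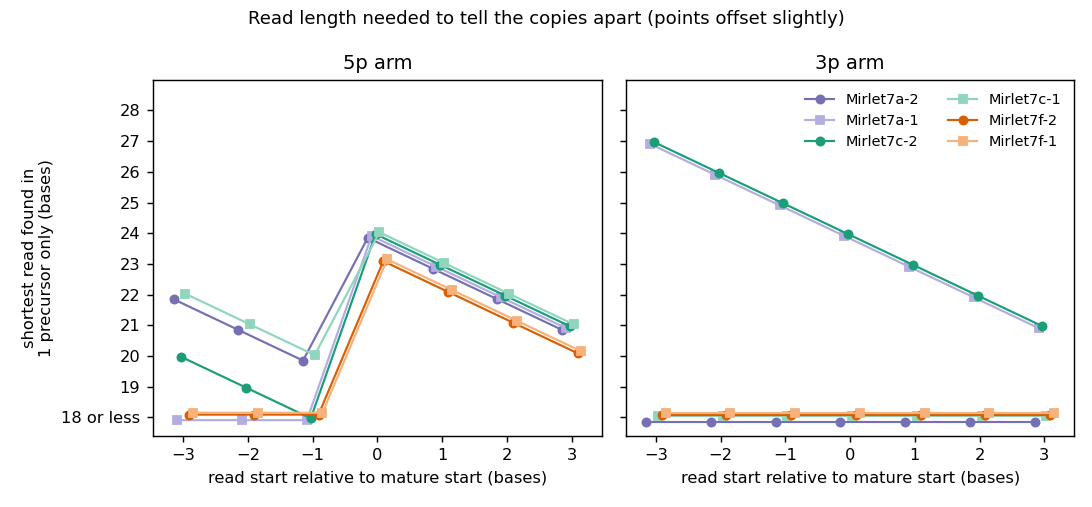
Shortest read (bases, vertical axis) that occurs in only 1 annotated precursor, by where the read starts relative to the first base of the 5p arm (left) or the 3p arm (right), for the 6 let-7 copies. At the mature 5p start the copies need 23 or 24 bases, and on the 3p arm Mirlet7c-2 and Mirlet7a-1 need 24 while the others are unique at 18 bases or less.

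The tables count reads per gene, with both arms summed, and set aside every read that aligned to more than 1 place. Levels below are sense reads per 1e6 sense reads on miRNA genes (counts per 1e6, CPM), not divided by gene length, since a miRNA read spans the whole molecule. Depth was between 8152102 and 10176117 reads per library, of which 3510897 to 3949733 lay on the sense strand of a miRNA gene. Reads that aligned to several places made up 46.4% of all reads in replicate 2 and 42.6% in replicate 1. Of 9 skeletal muscle marker genes, 8 reached 2 CPM in both libraries, and the 9 had a summed level of 9.61% and 11.7% of sense reads in replicates 2 and 1. Mir206, a miRNA of skeletal muscle, made up 9.53% and 11.6%, and the 8 other muscle genes summed to 0.0832% and 0.0710%, each of them higher in replicate 2. The Mir1a and Mir133a genes among these 8 are pairs of copies with 22-base windows that recur in other annotated precursors. Any of their reads that aligned to several places were set aside, so this sum is of placed reads, not of the mature miRNAs. Markers of other cells were also present, at 4.63% and 4.20% in replicates 2 and 1 for 1 endothelial gene, 3.27% and 2.74% for 3 genes of smooth muscle and stroma, 0.187% and 0.207% for 2 erythroid genes and 0.0176% and 0.0491% for 1 liver gene. Of 6 neuronal marker genes, 0 reached 2 CPM in both libraries and 4 were at 0 reads in both. In bulk tissue, fewer cells of a type and less RNA per cell cannot be told apart.

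The 6 copies together held few of the counted reads. Their sum was 3648 CPM (0.365% of sense reads, Wilson 95% interval 0.359% to 0.371%) in replicate 2 and 3954 CPM (0.395%, 0.389% to 0.402%) in replicate 1. The 8 other let-7 family genes, whose listed mature arms occurred in 0 other annotated precursors, held 12.7% and 12.9% of sense reads. The 6 copies thus made up 2.78% and 2.97% of the counted let-7 reads in replicates 2 and 1. Intervals here and below cover counting error only, and the labels name no molecular identifiers, so reads may not be independent molecules.

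Beside the reads set aside, the counted reads of the copies were a small number. The copies held 14408 sense reads in replicate 2, where 4718603 reads had aligned to several places, and 13883 in replicate 1, where 3469647 had. The copies' reads equalled 0.305% of the set-aside reads in replicate 2 and 0.400% in replicate 1, and the set-aside reads outnumbered them 327-fold and 250-fold. The tables do not say which genes the set-aside reads match, so how many of them are let-7a, let-7c or let-7f cannot be read from these data. The levels of the copies are therefore levels of the reads that could be placed, not of the mature miRNAs.

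Of the let-7f genes, Mirlet7f-2 (ENSMUSG00000065602.1, mm10 chrX:151912346-151912428, plus strand) lies in an intron of Huwe1, which encodes a ubiquitin ligase. Mirlet7f-1 (ENSMUSG00000105621.1, chr13:48537829-48537917, minus strand) lies in an exon of the lincRNA gene 6720427I07Rik. Mirlet7f-2 stood at 2539 CPM in replicate 2 and 2664 CPM in replicate 1 (2601 ± 88.8, SD, n = 2 animals). Mirlet7f-1 stood at 168 and 183 CPM (176 ± 10.8). Mirlet7f-2 thus had more placed reads in both animals, with no overlap, by 15.1-fold in replicate 2 and 14.5-fold in replicate 1. Reads that hold only the let-7f 5p arm match both copies, so this fold compares reads that other bases placed. The base after the arm is u in Mirlet7f-2 and g in Mirlet7f-1, so the end of a read can decide its placement. Whether the fold reflects the output of the 2 genes was not tested. Its share of the pair's reads was 93.8% (Wilson 95% interval 93.3% to 94.2%) in replicate 2 and 93.6% (93.1% to 94.0%) in replicate 1. By itself Mirlet7f-2 held 69.6% and 67.4% of the reads of all 6 copies.

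Both let-7c genes lie in long non-coding host genes. Mirlet7c-2 (ENSMUSG00000065608.1, chr15:85706603-85706697, plus strand) is in an exon of Lncppara, and Mirlet7c-1 (ENSMUSG00000065557.3, chr16:77599657-77599750, plus strand) in an intron of Mir99ahg, the host of Mir99a, opposite an intron of Gm11146. Mirlet7c-2 stood at 405 CPM in replicate 2 and 497 CPM in replicate 1 (451 ± 64.8, SD, n = 2). Mirlet7c-1 stood at 205 and 252 CPM (229 ± 33.2). The groups of values do not overlap, and the ratio was nearly the same in both animals, 1.98-fold and 1.97-fold, although both genes were lower in replicate 2. Mirlet7c-2 held 66.4% (64.5% to 68.2%) and 66.3% (64.5% to 68.1%) of the pair's reads.

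The let-7a copies were the closest pair. Mirlet7a-2 (ENSMUSG00000092770.1, chr9:41536716-41536811, plus strand) lies in introns of 3110039I08Rik and of the lincRNA gene Gm49317, and Mirlet7a-1 (ENSMUSG00000065421.3, chr13:48538179-48538272, minus strand) lies in an exon of 6720427I07Rik, the gene that also holds Mirlet7f-1. Mirlet7a-2 stood at 155 CPM in replicate 2 and 147 CPM in replicate 1 (151 ± 5.66, SD, n = 2). Mirlet7a-1 stood at 176 and 211 CPM (194 ± 24.7). Here the second copy was the lower one in both animals, 0.877 times the first in replicate 2 and 0.694 times in replicate 1. Mirlet7a-2 held 46.7% (44.0% to 49.4%) and 41.0% (38.3% to 43.7%) of the pair's reads, so both intervals lie below an even split but by different margins.

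**Figure D2:**
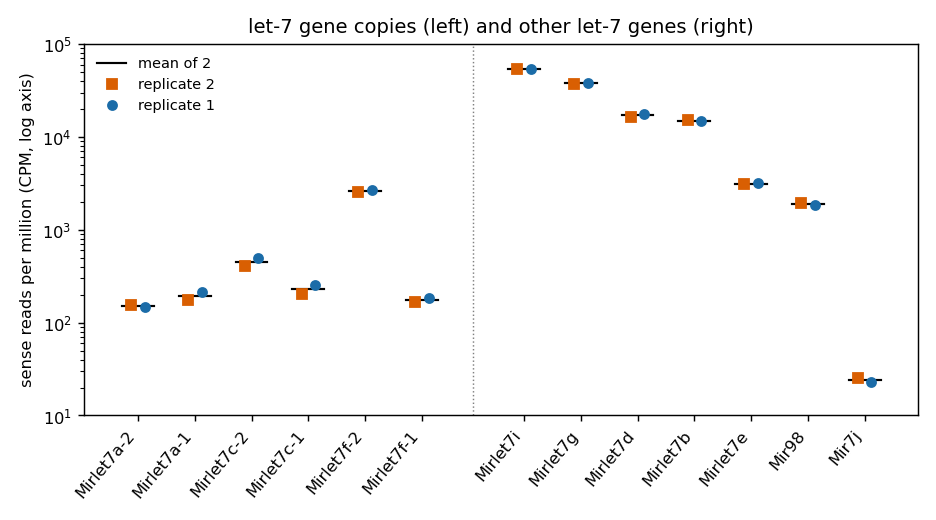
Sense reads per 1e6 (CPM, log axis) of the 6 let-7 copies, left of the dotted line, and of 7 of the 8 other let-7 genes, right of it, in replicate 2 (squares) and replicate 1 (circles), with the mean of both as a line. Mir7k, at 0 reads in both libraries, is not drawn. The copies lie between 147 and 2664 CPM, and 5 of the other genes lie above all of them.

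**Figure D3:**
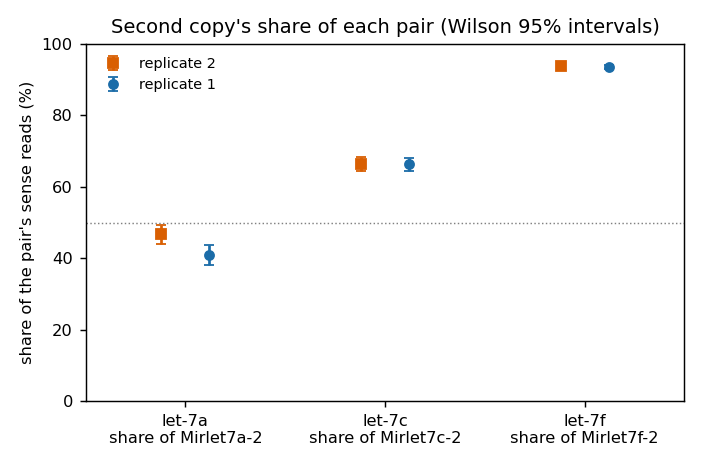
Share of each pair's sense reads (%, vertical axis) on the second copy, with Wilson 95% intervals, in replicate 2 (squares) and replicate 1 (circles). The dotted line is an even split. Mirlet7a-2 lies below the line at 46.7% and 41.0%, Mirlet7c-2 near 66% and Mirlet7f-2 near 94% in both animals.

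By mean level the order was Mirlet7f-2, Mirlet7c-2, Mirlet7c-1, Mirlet7a-1, Mirlet7f-1 and Mirlet7a-2, and the highest exceeded the lowest 17.3-fold. This order held within each library. The last 3 genes were close in replicate 2, at 697, 663 and 611 reads, and the counting error of their order was not computed. Across animals the levels of Mirlet7c-1 and Mirlet7a-1 overlapped, as did those of Mirlet7a-1 and Mirlet7f-1. Within a library, Mirlet7c-1 was 1.16 and 1.19 times Mirlet7a-1 in replicates 2 and 1 (mean 1.18 ± 0.0216, SD, n = 2), a ratio that varied little between animals. Mirlet7a-1 was 1.05 and 1.15 times Mirlet7f-1 (1.10 ± 0.0726), and Mirlet7f-1 was 1.09 and 1.25 times Mirlet7a-2 (1.17 ± 0.116). An exact sign or permutation test over 2 libraries cannot give a two-sided p under 0.5, so no such test of the order was run. All 6 copies exceeded 100 CPM in both animals, as did 174 of the 332 genes at 2 CPM or more in each library, and Mirlet7f-2 ranked number 52 and Mirlet7a-2 number 162 among all miRNA genes.

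Each copy lies in a cluster with other miRNA genes. The comparisons below are of placed reads, and the genes differ in which reads could be placed. Reads that hold only the 5p arm of a copy also match its partner copy. The listed arms of Mirlet7d, Mirlet7b and Mir98 occurred in 0 other annotated precursors, and the arms of Mir99a and Mir100 were not searched. How far this enters the ratios was not tested. On chromosome 13 the let-7a, let-7f and let-7d genes follow each other on the minus strand. Mirlet7a-1 and Mirlet7f-1, separated by 261 bases, differed little, with Mirlet7a-1 1.05-fold and 1.15-fold higher in replicates 2 and 1. Mirlet7d, 1714 bases beyond Mirlet7f-1, stood at 16290.0 CPM in replicate 2 and 17799 CPM in replicate 1, which is 92.3 and 84.2 times Mirlet7a-1 and 97.0 and 97.2 times Mirlet7f-1.

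The same contrast was seen at 3 of the other four loci, where a copy stood far below its nearest neighbour in placed reads. Mirlet7c-1, 656 bases from Mir99a, stood at 205 and 252 CPM in replicates 2 and 1, against 24194 and 22931 CPM for Mir99a. Mirlet7c-2, 621 bases from Mirlet7b, stood at 405 and 497 CPM, against 15233 and 14762 CPM for Mirlet7b. Mirlet7a-2, 5211 bases from Mir100, stood at 155 and 147 CPM, against 6507 and 6086 CPM for Mir100. The partner was thus 118 and 91.0 times, 37.6 and 29.7 times, and 42.1 and 41.5 times its let-7 copy.

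The third genes of 2 of these loci are themselves copies of a pair, Mir125b-1 and Mir125b-2, and stood much closer to the let-7 copies. Mirlet7a-2 was 0.414 and 0.427 times Mir125b-1, which stood at 374 and 343 CPM in replicates 2 and 1. Mirlet7c-1 was 1.94 and 2.30 times Mir125b-2, at 106 and 109 CPM. These genes lie 45114 and 46522 bases from the let-7 copies.

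Mirlet7f-2 was the exception among the copies. Its neighbour, also in an intron of Huwe1, is Mir98, a let-7 family member with the let-7 seed, 785 bases away. Mirlet7f-2 stood at 2539 and 2664 CPM in replicates 2 and 1, against 1920.1 and 1844 CPM for Mir98. The copy was the higher gene here, by 1.32-fold in replicate 2 and 1.45-fold in replicate 1.

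**Figure D4:**
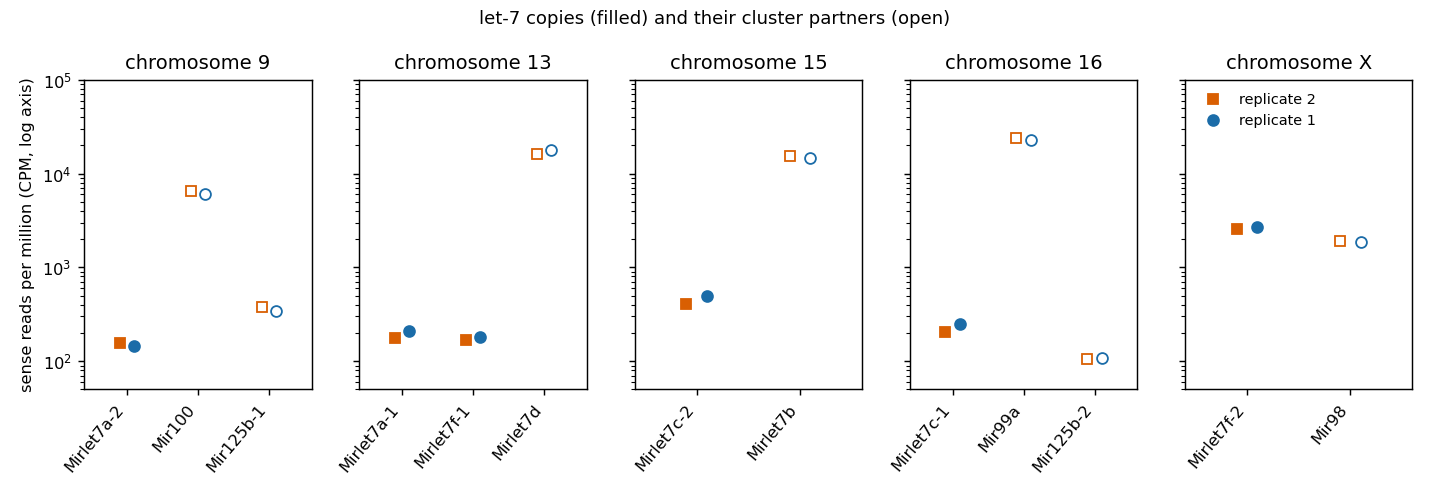
Sense reads per 1e6 (CPM, log axis) of the let-7 copies (filled) and the genes of the same cluster (open), 1 panel per chromosome, in replicate 2 (squares) and replicate 1 (circles). On chromosomes 9, 13, 15 and 16 a copy lies 29.7-fold to 118-fold below a neighbour in placed reads, and on X Mirlet7f-2 lies above Mir98.

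Other let-7 genes spanned a wider range than the copies. Mirlet7i stood at 53560.3 and 53634 CPM in replicates 2 and 1, Mirlet7g at 37361 and 37906 CPM and Mirlet7e at 3076 and 3206 CPM. Mirlet7e was the family member closest above Mirlet7f-2. Mir7j, which encodes let-7j, stood at 25.6 and 22.8 CPM, below every copy, and Mir7k, which encodes let-7k, had 0 reads in both libraries, which allows up to 0.760 and 0.854 CPM of placeable reads.

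The let-7 pairs were set beside every other group of exactly 2 copies, by gene symbol, with at least 100 sense reads over both libraries. There were 15 such groups, and in 15 of them the same copy was higher in both animals, as in the let-7 pairs. Over both libraries, the higher copy of the 15 groups held between 60.6% and 99.4% of a group's reads, with a median of 82.0%. The higher let-7 copies held 56.1% (Mirlet7a-1), 66.4% (Mirlet7c-2) and 93.7% (Mirlet7f-2). The let-7a split was more even than in any of the 15 groups, 2 groups were more even than let-7c, and 5 were more uneven than let-7f. With a minimum of 20 reads in place of 100, 2 of 24 groups were more even than let-7a. Which reads each group could place differs from group to group, so these shares describe placed reads.

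The groups nearest to the let-7 pairs in log2 ratio of the later over the earlier copy were named by rule, among these 15 and over 2 libraries. For let-7a (-0.36) it was the miR-138 pair (-0.62), with Mir138-2 at 36.7 ± 15.7 CPM and Mir138-1 at 56.5 ± 23.5 CPM. For let-7c (0.98) it was the miR-30c pair (0.73), with Mir30c-2 at 69.1 ± 1.45 CPM and Mir30c-1 at 42.0 ± 7.50 CPM. For let-7f (3.89) it was the muscle miR-1a pair (4.36), with Mir1a-2 at 77.4 ± 14.0 CPM and Mir1a-1 at 3.61 ± 0.269 CPM.

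Of the 3 let-7 pairs, the higher copy had more shared 22-base windows in 2 and fewer in 0, and the numbers were equal in 1. Whether shared sequence plays a part in the split was not tested. Mirlet7c-2 and Mirlet7a-1, the genes with no listed arm of their own, were the higher copies of their pairs, with 7 shared 22-base windows each, against 2 each in Mirlet7c-1 and Mirlet7a-2. The let-7f copies had 1 shared window each. Among the 15 other groups the 2 copies had equal numbers of shared windows in 13, and the higher copy had more in 1 and fewer in 1, so these groups offer almost no comparison. The counts per gene do not show where on the hairpin the placed reads lie.

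**Figure D5:**
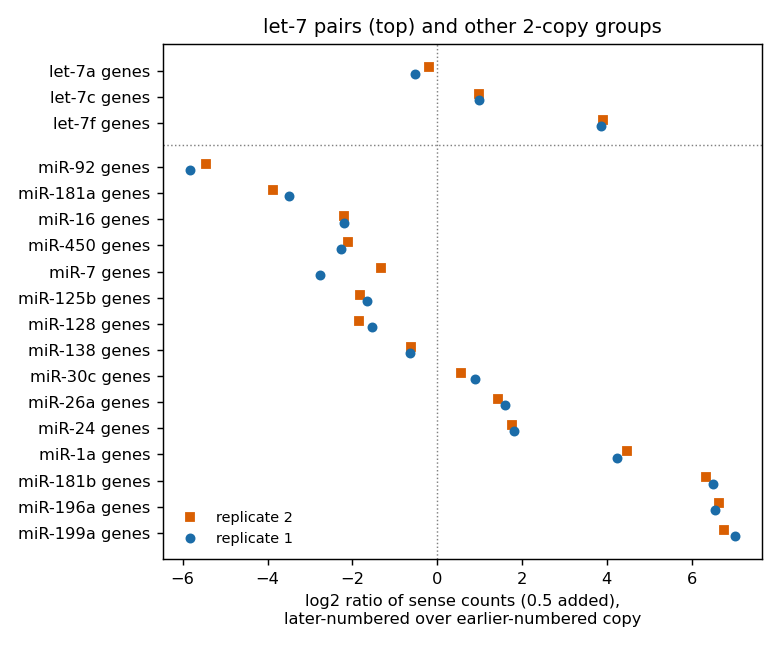
Log2 ratio of sense counts, with 0.5 added to each, of the later-numbered over the earlier-numbered gene in the 3 let-7 pairs (top) and the 15 other 2-copy groups with at least 100 sense reads, in replicate 2 (squares) and replicate 1 (circles). let-7a lies close to 0, let-7c near 1 and let-7f near 4, and the other groups lie on both sides of 0.

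For each gene, the counts in the 2 libraries were set against each other in a two-sided exact binomial test, adjusted by the Benjamini-Hochberg method over 395 genes. It compares these libraries, each of 1 animal, and not conditions. With a limit of 2-fold, 0 of the 6 copies passed, where 7.09% of all tested genes did. At an adjusted p under 0.05 without the fold limit 4 copies passed, each of them lower in replicate 2, where 41.3% of all tested genes passed in either direction. Passing depends on the number of reads, and the tested genes go down to 10 reads over both libraries. Neither share is therefore a like-for-like background for the copies, which had far more reads. The median log2 ratio of replicate 2 over replicate 1 was -0.19 over the copies and -0.03 over all tested genes. The p-values, like the intervals, set the difference against counting error only. Between the same libraries the muscle marker sum was 9.61% in replicate 2 and 11.7% in replicate 1, with Mir206 lower and the 8 other muscle genes higher in replicate 2. In the library test Mir206, Mir1a-2, Mir208b and Mir486 passed without the fold limit, and Mir1a-1, Mir133a-1, Mir133b and Mir499 did not. Mir133a-2, at 6 and 2 reads in replicates 2 and 1, had too few reads to be tested. The endothelial marker and the sum of smooth muscle and stroma were higher in replicate 2, and the erythroid sum and the liver marker Mir122 were lower, with the values given above. Reads that aligned to several places also differed, at 46.4% of all reads in replicate 2 and 42.6% in replicate 1. The part of the markers or of the set-aside reads in the let-7 differences was not tested.

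Of the copies that passed, the let-7c pair had the lowest ratios, and they were nearly equal. The log2 ratio of Mirlet7c-2 was -0.29 (0.815-fold, 95% interval 0.762 to 0.873, exact binomial adjusted p = 2.07e-08), from 1600 and 1744 reads in replicates 2 and 1. That of Mirlet7c-1 was -0.30 (0.814-fold, 0.739 to 0.896, exact binomial adjusted p = 9.14e-05), from 810 and 885 reads. Mirlet7a-1, with 697 and 742 reads, had a log2 ratio of -0.26 (exact binomial adjusted p = 0.00212). Mirlet7f-2, with 10027 and 9354 reads, had one of -0.07 (exact binomial adjusted p = 0.00252). That call ended with DESeq2 size factors (exact binomial adjusted p = 0.597) and with counts taken without strand (0.160).

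Mirlet7f-1 and Mirlet7a-2 did not pass. Mirlet7f-1, with 663 and 643 reads in replicates 2 and 1, had a log2 ratio of -0.13 (0.917-fold, 0.821 to 1.02, exact binomial adjusted p = 0.226). Mirlet7a-2, with 611 and 515 reads, had one of 0.08 (1.05-fold, 0.936 to 1.19, exact binomial adjusted p = 0.532) and was the only copy with a ratio above 0. For scale, 5 of 7 tested other let-7 genes passed without the fold limit, 3 lower and 2 higher in replicate 2, and 0 passed with it. The SD of the copies was 3.41% to 14.5% of their means, beside a common biological coefficient of variation of 0.188 over 320 genes from edgeR.

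The split between copies was compared between the animals as well, with a two-sided Fisher's exact test of copy by library, adjusted over the 3 pairs. Mirlet7a-2 held 46.7% of the let-7a reads in replicate 2 and 41.0% in replicate 1, a difference of 5.74 percentage points (odds ratio 1.26, Fisher's exact adjusted p = 0.0110). The shares of Mirlet7c-2 differed by 0.0530 points (Fisher's exact adjusted p = 0.976) and those of Mirlet7f-2 by 0.230 points (Fisher's exact adjusted p = 0.766), each within the Wilson intervals given above. The let-7a split was thus the only one of the 3 to pass the threshold between the libraries, and with 1 animal per library its spread over animals is not known.

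Strand was needed to count Mirlet7f-1. On the opposite strand the annotation holds another miRNA gene, Gm24111 (chr13:48537825-48537921, plus strand), which contains the whole of Mirlet7f-1. Without strand, Mirlet7f-1 had 0 reads in both libraries, against 663 and 643 sense reads in replicates 2 and 1, and the antisense count of Gm24111 was the same 663 and 643. Mirlet7e, which lies opposite the miRNA gene Gm25927, was likewise at 0 without strand, against 12151 and 11257 sense reads. Reads counted as ambiguous without strand were 6.75% and 6.66% of all reads. Gm24111 itself had 0 sense reads in either library, so at this depth no placeable reads from that strand were detected, up to 0.760 and 0.854 CPM. The counts of the other five copies were identical with and without strand, and 0 antisense reads fell on any of the 6.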

How the data were processed

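MicroRNA-seq libraries of 2 animals were used. The deposited files give raw read counts for 2202 miRNA genes in 3 columns (unstranded, sense and antisense) and 4 summary rows, with no normalization by the authors. The build was mm10 and the annotation GENCODE M21, per the text files that the authors deposited with the tables. The read aligner, counter and trimming were not given in the sources used here. Sense and antisense were read from the layout known from STAR gene counts and from the column totals. Whether mismatches were allowed is not known, so the exact-match search of sequences may not mirror the alignment, and CAST alleles at these genes were not analysed.

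All 2202 identifiers matched GENCODE M21. Summary rows, 61.2% and 56.9% of reads in replicates 2 and 1, stayed out of library totals and tests. Genes with at least 10 reads over both libraries entered the exact binomial test (scipy 1.17.1), and log2 ratios have 0.5 added to each count. edgeR 4.0.16 and DESeq2 1.42.0 in R 4.3.3 gave size factors and the common dispersion (genes with 10 reads in each library). The limit for a count of 0 is 3 counts. Read lengths of 18 to 30 bases were searched in the 2202 GENCODE precursor sequences.

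The copies, the cluster partners, the other let-7 genes (let-7j and let-7k appear as Mir7j and Mir7k) and the marker genes were named as lists, plus the nearest 2-copy group to each let-7 pair. Members and lists were chosen with earlier results of these data known. The exact tests treat reads as independent, so their p-values cover counting error and not the spread between animals. Alternatives tried were other denominators and size factors, counts without strand, other filters and fold limits, and leaving out each replicate.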

Additional observations from a re-analysis of the deposited data

How the results depend on the processing

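The levels of the 6 copies moved by less than the SD between animals with TMM or DESeq2 size factors. Leaving out 1 of 2 replicates leaves the value of the other, so it moves a mean by less than 1 SD by construction, and no result without a replicate is a test of stability. With all reads of the file as the denominator, which the many set-aside reads enlarge, they were 61.6 CPM for Mirlet7a-2, 79.8 for Mirlet7a-1, 186 for Mirlet7c-2, 94.1 for Mirlet7c-1, 1066 for Mirlet7f-2 and 72.0 for Mirlet7f-1. With counts taken without strand, which total fewer reads, they were 180.4, 232, 539, 273, 3112 and 0 CPM in the same order, and the share of Mirlet7f-2 in its pair became 100%. Within a library the order of the copies other than Mirlet7f-1 cannot change under either alternative, since their counts stay the same and only the denominator differs.

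The shares of the second copy moved by less than the SD between animals with 0.5 added to each count, and were those of 1 animal without the other (41.0% to 46.7% for Mirlet7a-2, 66.3% to 66.4% for Mirlet7c-2, 93.6% to 93.8% for Mirlet7f-2). Genes past the 2-fold limit between the libraries numbered 28, or 13 with at least 50 counts, where fewer genes are tested, 37 with a 1.5-fold limit, and 25 to 30 under the other alternatives. In each of these settings 0 of the copies tested passed the 2-fold limit, or the 1.5-fold limit where that was tried. The common coefficient of variation, the count of shared 22-base windows, the ratio to set-aside reads and the median of the other 2-copy groups stayed within 1.5 times their values under the alternatives tried. Depth limits the let-7a comparison most, with 1308 and 1257 reads on the pair in replicates 2 and 1. No paired analysis was possible because there is only 1 group.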
